A study of Mus musculus with 12 samples.

Results

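Calcium enters a neuron through voltage-gated channels, is released from the endoplasmic reticulum through ryanodine and IP3 receptors, and is removed by pumps and exchangers. In CA1 pyramidal neurons these proteins shape dendritic signals, transmitter release and the plasticity of synapses. The transcripts of 37 genes for such proteins were followed here among the 18558 genes of a count table from mouse dorsal hippocampus. They were taken from the table by gene number and comprise 8 pore-forming alpha1 subunits, 4 alpha2delta and 4 beta subunits of voltage-gated channels, 3 ryanodine and 3 IP3 receptors, 3 pumps of the endoplasmic reticulum (SERCA) and 4 of the plasma membrane (PMCA), 3 sodium/calcium exchangers, 2 STIM sensors and 3 ORAI channels. All 37 had a row, and 36 passed the filter on low counts.

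The study asked how the DNA glycosylases NEIL1 and NEIL2, which excise oxidized bases, bear on the hippocampus. CA1 pyramidal layer was captured by laser from 8-µm sections of male mice aged 3 to 6 months, taken from the home cage, with 1 library a mouse. The groups used were WT (C57BL/6N, 3 libraries), Neil1-/- (2), Neil2-/- (3) and Neil1-/-Neil2-/- (2), and the mutants had been backcrossed to C57BL/6N. The 3 mutant lines were bred apart from each other and from the WT mice, so that line and genotype cannot be told apart. A further 2 libraries carry labels that contradict each other and entered no comparison.

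Each library held 19618923 to 21970180 estimated counts over all genes. Neil2 had no count in any of the 5 libraries labelled Neil2-/- or Neil1-/-Neil2-/- and 5 to 10 counts in the others. Neil1 counts were not lower in libraries labelled as lacking it: they were 61 to 95 in the 6 libraries of WT and Neil2-/- and 119 to 161 in the 4 libraries labelled Neil1-/- or Neil1-/-Neil2-/-, a log2 difference of 0.86 (edgeR adjusted p = 0.0169). A count over the whole gene does not show which part of it was deleted, so that the directions given below for the loss of NEIL1 rest on the labels. The 10 marker genes of CA1 pyramidal neurons summed to 7151 to 8788 CPM (counts scaled to library size) in every library. Neil1-/-Neil2-/- library 1 stood apart (score 43.9 on the first principal component, against -21.1 to 10.9 for the others). Its 11 oligodendrocyte markers summed to 1302 CPM (548 to 635 CPM in WT), and its 14 thalamus and striatum markers to 554 CPM (344 to 418 CPM in WT). Its astrocyte markers summed to 1152 CPM (709 to 837 CPM in WT) and its blood markers to 274 CPM (75.7 to 116.5 CPM in WT). Its choroid plexus and ependyma markers summed to 304 CPM (58.05 to 175 CPM in WT). Neil1-/- library 2 had the highest score on the second component (29.0, against -20.5 to 19.7), and its 7 markers of CA2 and CA3 summed to 588 CPM (294 to 361 CPM in the other libraries). Of that sum, 351 CPM came from Nnat alone (44.7 to 122 CPM in the other libraries). Grik4 was also highest there (18.3 CPM) and Iyd was at 0.201 CPM. Rgs14 at 184 CPM lay below its WT range (190 to 207 CPM), and Amigo2, Cpne4 and Bok lay within theirs, so most of the list did not rise. These 2 libraries are called the outlying libraries below. In such captured tissue, fewer cells of a type and less RNA per cell cannot be told apart.

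Levels were compared between genes per length, as TPM (counts divided by the longest annotated transcript and scaled to 1 total), in the 3 WT libraries. The plasma membrane pump Atp2b1 was first, at 1121 ± 36.6 TPM (SD, n = 3), rank 96 of 17970 genes. The main reticulum pump Atp2a2 followed at 378 ± 20.3 TPM and the exchanger Slc8a2 at 288 ± 35.3 TPM. Genes for transport out of the cytosol thus held the first 3 places of the 37, although Slc8a2 came 6th when the mean transcript length was used. At 10 TPM or more there were 26 members, 8 lay between 1 and 10 TPM, and Itpr3, Atp2a1 and Cacna2d4 lay under 1 TPM. The median of all genes was 9.25 TPM. Of the 36 neighbouring pairs in this order, 20 had overlapping WT ranges and 16 did not, so that many neighbours are not resolved. The pair Atp2b1 and Atp2a2, and the pair Atp2a2 and Slc8a2, did not overlap.

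**Figure D1:**
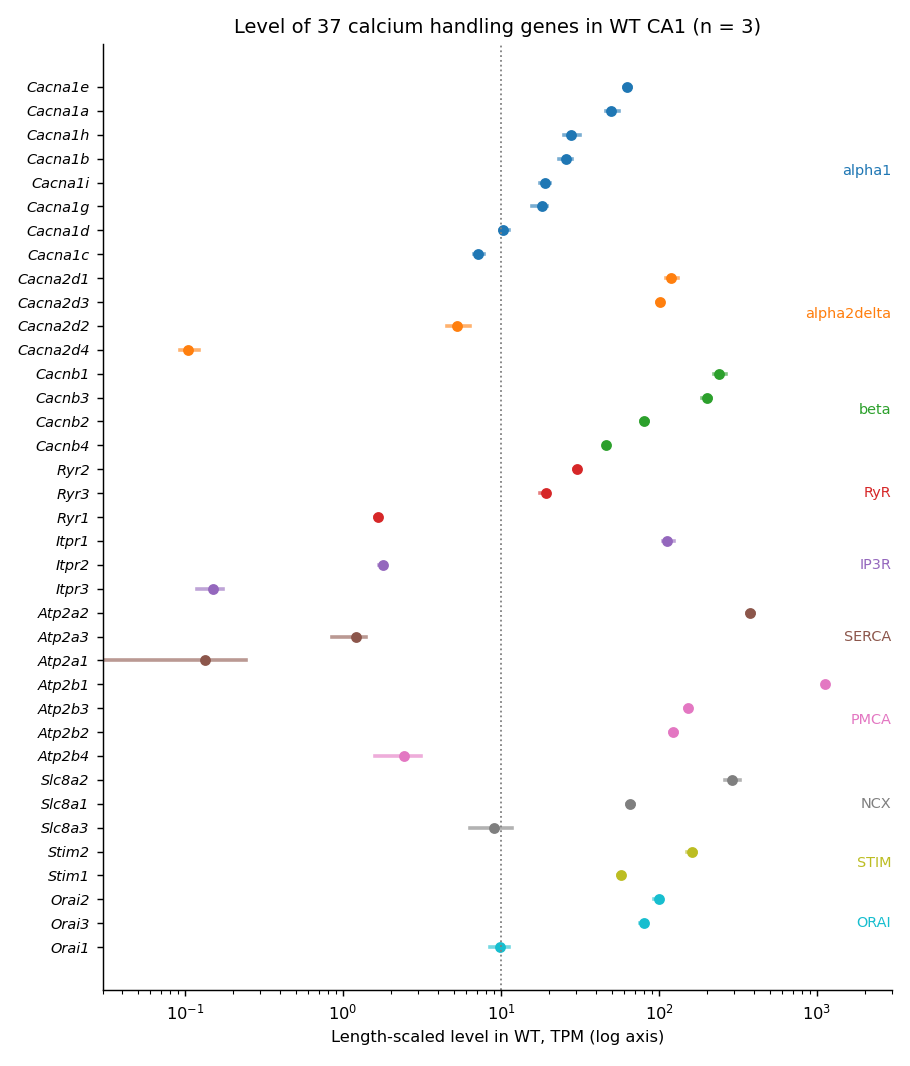
Length-scaled level of each member in WT CA1, in TPM on a log axis, grouped by family. Points are means of 3 libraries and bars run from the lowest to the highest library (the bar of Atp2a1 is clipped at the left, its lowest value being 0), and the dotted line marks 10 TPM, which 26 members reached.

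Among the pore-forming subunits, which set the kind of calcium current, Cacna1e (R-type) led at 62.2 ± 3.70 TPM, followed by Cacna1a (P/Q-type) at 49.8 ± 5.13 TPM. The ranges of these leading subunits did not overlap. The T-type genes Cacna1h, Cacna1i and Cacna1g were at 27.8, 19.0 and 18.2 TPM, and N-type Cacna1b at 25.7 TPM. The L-type genes Cacna1d (10.3 TPM) and Cacna1c (7.09 TPM) were the lowest of the 8. Across all 10 libraries Cacna1e made up 23.1% to 30.2% of the summed alpha1 level, Cacna1a 21.4% to 25.2% and Cacna1c 2.84% to 3.78%. Cacna1e led in 8 of the 10 libraries, while Cacna1a stood above it in Neil1-/- library 1 (24.1% against 23.1%) and, by a narrow margin, in Neil2-/- library 3. With the mean transcript length Cacna1a was also the higher of the pair in WT library 2, so that their order within a library is not firm.

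**Figure D2:**
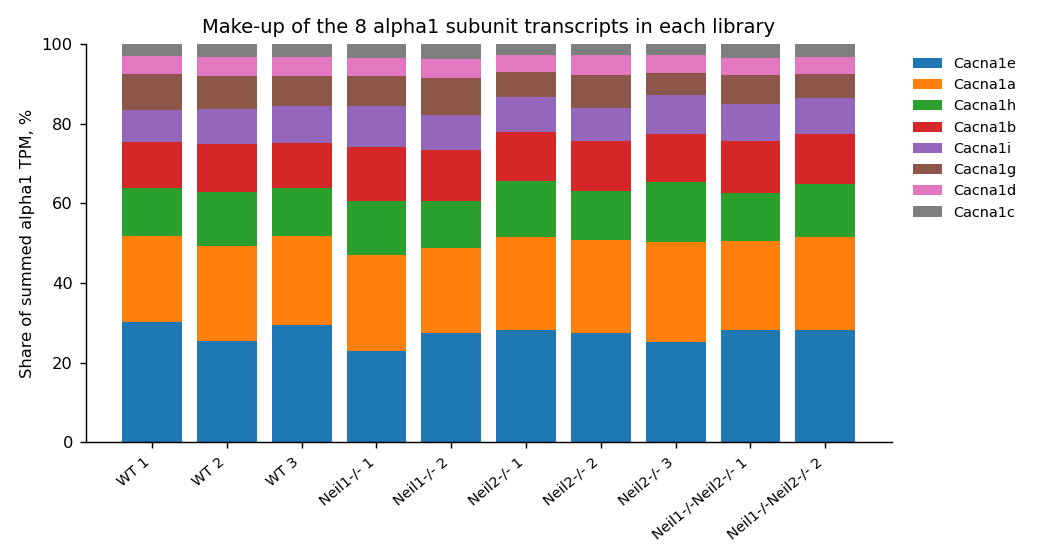
Share of each alpha1 gene in the summed alpha1 level (TPM) of each library, in percent, for the 10 libraries of the 4 genotypes. Cacna1e took 23.1% to 30.2% and Cacna1a 21.4% to 25.2%, and the L-type genes Cacna1d and Cacna1c are the thin bands at the top.

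Other families were led more clearly by 1 gene. Itpr1, the neuronal IP3 receptor, made up 97.8% to 98.6% of its family in every library, and Atp2a2 99.4% to 99.8% of the SERCA level. Atp2b1 held 78.0% to 80.4% of the PMCA level and Slc8a2 78.6% to 82.6% of the exchangers. By the longest transcript, the ryanodine receptors, alpha2delta and beta subunits were more evenly divided. Ryr2 held 58.5% to 64.0% and Ryr3 33.0% to 38.2% of the ryanodine receptor level, with skeletal muscle Ryr1 at 1.91% to 4.42%. Cacna2d1 (48.6% to 58.5%) and Cacna2d3 (39.1% to 48.8%) shared the alpha2delta level. Cacnb1 (39.3% to 48.0%) and Cacnb3 (30.8% to 41.7%) led the beta subunits, which carry the channel to the membrane. Stim2, a sensor of calcium in the reticulum, held 69.5% to 75.0% against Stim1, and Orai2 46.4% to 58.6% of the ORAI level, although Orai3 was close to it in Neil1-/- library 2 (46.0% against 46.4%). The leading WT gene of all 10 families was unchanged when the mean transcript length replaced the longest. The shares were not: with the mean length Slc8a2 held 56.2% to 63.4% and Slc8a1 33.35% to 41.9% of the exchangers. Ryr2 then held 72.1% to 76.4% of the ryanodine receptor level. How clearly 1 gene led these families thus depends on the length used.

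None of the 36 tested members passed an adjusted p of 0.05 (edgeR, quasi-likelihood test, Benjamini-Hochberg over 13982 genes) in any of 6 comparisons. In Neil1-/- against WT, 0.2% of all genes did so (0.114% higher, 0.0858% lower), in Neil2-/- against WT 0.3% (0.164% higher, 0.136% lower), and in Neil1-/-Neil2-/- against WT 0.322% (0.186% higher, 0.136% lower). For the interaction, the departure of the double mutant from the sum of the single mutants, the share was 0.093% (0.0286% higher, 0.0644% lower). In an additive model over the same 10 libraries it was 0.336% for the loss of NEIL1 (0.136% higher, 0.2% lower) and 1.49% for the loss of NEIL2 (0.73% higher, 0.765% lower). A count of 0 among 36 genes does not set the members apart from this background. DESeq2 called 1 member, Slc8a1, for the loss of NEIL1, where it called 1.72% of all genes, and 0 in the other 5 comparisons.

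At an unadjusted p under 0.05, 5 members differed in Neil1-/- (1 higher and 4 lower, beside 8.98% of all genes, 4.09% higher and 4.89% lower). In Neil2-/- 3 did (2 higher and 1 lower, beside 9.65%, 5.32% higher and 4.33% lower), and in Neil1-/-Neil2-/- 4 (1 higher and 3 lower, beside 11.1%, 6.33% higher and 4.73% lower). The interaction gave 2 members, both above 0 (5.52% of all genes, 3.2% above and 2.32% below). The loss of NEIL1 gave 8 (1 higher and 7 lower, beside 13.8%, 7.03% higher and 6.77% lower), and the loss of NEIL2 gave 8 (6 higher and 2 lower, beside 16.1%, 8.52% higher and 7.61% lower). At the same p DESeq2 gave 4, 3, 5, 3, 9 and 8 members in these 6 comparisons, beside 8.17%, 8.48%, 9.67%, 4.66%, 13.5% and 15.7% of all genes.

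Of 36 members, 10 lay above 0 in Neil1-/- (51.0% of all genes), 22 in Neil2-/- (49.2%), 17 in Neil1-/-Neil2-/- (50.9%) and 20 in the interaction (50.9%). For the loss of NEIL1 10 lay above 0 (51.1% of all genes) and for the loss of NEIL2 26 did (50.6%). The median log2 difference of the members was -0.10 in Neil1-/-, 0.02 for Neil2-/- and -0.01 for Neil1-/-Neil2-/-, -0.07 for the loss of NEIL1 and 0.08 for the loss of NEIL2, beside 0.00 for all genes in each. Without Neil1-/- library 2 and Neil1-/-Neil2-/- library 1, the loss of NEIL1 gave a median of -0.04 and 2 members at an unadjusted p under 0.05 (6.43% of all genes in that fit), and the loss of NEIL2 a median of 0.07 and 5 members (12.4%). Markers of other cell types also differed with the NEIL1 label: 11 of 11 oligodendrocyte markers lay above 0 (10 at an unadjusted p under 0.05), as did 9 of 9 astrocyte markers (5) and 12 of 14 thalamus and striatum markers (9 higher, 1 lower), while 8 of 10 markers of CA1 pyramidal neurons lay below 0 (1). The differences of the oligodendrocyte, astrocyte and thalamus and striatum markers were larger in Neil1-/-Neil2-/- than in Neil1-/-. For the CA1 pyramidal markers the median against WT was -0.05 in each. Against WT the median of the oligodendrocyte markers was 0.02 in Neil1-/- (7 above 0 and 4 below) and 0.73 in Neil1-/-Neil2-/-. For astrocyte markers it was 0.15 and 0.32, and for thalamus and striatum markers 0.08 and 1.02. The thalamus and striatum markers differed between the Neil1-/- libraries, with sums of 466 CPM in library 1 and 350 CPM in library 2 (344 to 418 CPM in WT). The oligodendrocyte markers summed to 701 and 534 CPM in Neil1-/-, and to 1302 and 715 CPM in Neil1-/-Neil2-/- libraries 1 and 2. The part of all these markers in the members' values was not tested.

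In the libraries themselves, the CPM of 9 members did not overlap between Neil1-/- and WT (1 higher and 8 lower, beside 26.5% of all genes, 12.7% higher and 13.8% lower). Between Neil2-/- and WT 3 members did not overlap (2 higher and 1 lower, beside 15.3%, 7.66% higher and 7.6% lower). Between Neil1-/-Neil2-/- and WT 15 did not (6 higher and 9 lower, beside 28.7%, 14.1% higher and 14.6% lower).

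The 95% intervals show what size of change these libraries leave possible. Of the 33 members at 5 CPM or more in WT, the interval lay within 1 log2 unit of 0 for 31 members in Neil1-/-, for 32 in Neil2-/- and for 30 in Neil1-/-Neil2-/-. It lay within 0.5 log2 units for 25, 27 and 25 of them. The members outside the wider bound were Atp2b4 and Slc8a3 in Neil1-/-, Atp2b4 in Neil2-/-, and Atp2b4, Slc8a3 and Cacna2d2 in Neil1-/-Neil2-/-. They had 80 to 508 counts a library. Orai1, Itpr2 and Ryr1, at 102 to 201 counts, stayed within that bound in each mutant. Itpr3, Atp2a1 and Atp2a3, under 5 CPM, had intervals that reached beyond 1 log2 unit from 0 in each mutant. Cacna2d4, an alpha2delta gene, had 2 to 8 counts a library and was not tested.

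**Figure D3:**
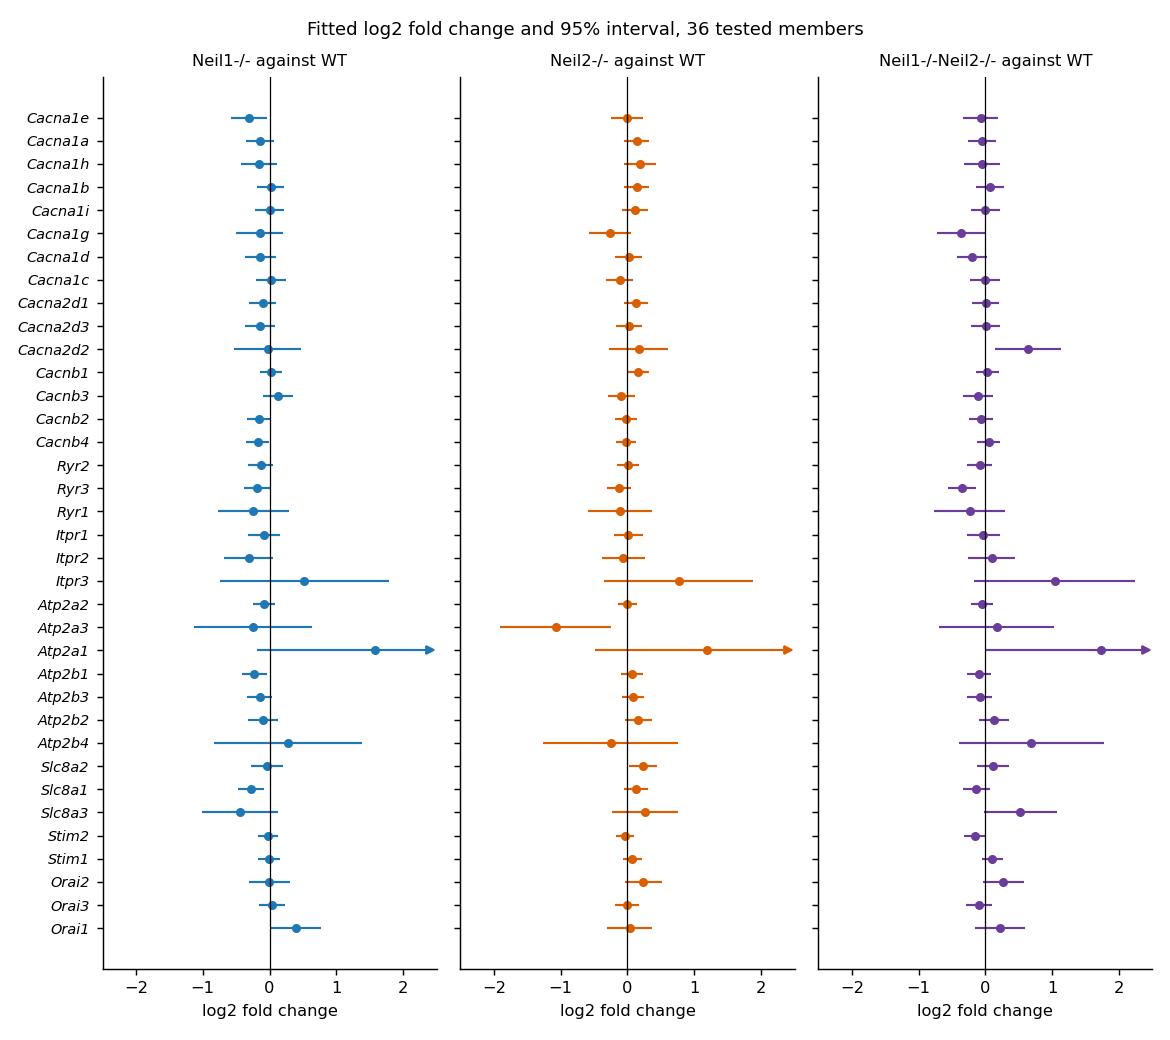
Fitted log2 fold change of each tested member against WT in Neil1-/-, Neil2-/- and Neil1-/-Neil2-/- (points) with 95% intervals (lines, arrowheads where cut at the axis end). Most intervals are short and cross 0. The wide ones belong to genes of very low count such as Atp2a1 and Itpr3, and to Atp2b4.

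None of the 8 alpha1 subunits was called. Cacna1e measured 338, 303 and 314 CPM in WT, 228 and 286 CPM in Neil1-/-, 364, 315 and 273 CPM in Neil2-/- and 287 and 319 CPM in Neil1-/-Neil2-/-. Both Neil1-/- libraries were below every WT library, and both other mutants overlapped WT. Its log2 difference in Neil1-/- was -0.31 ± 0.12 (SE), with an adjusted p of 0.524 in edgeR. It was -0.15 without Neil1-/- library 1 and -0.48 without library 2. Library 1, with the lower value, was the one with high thalamus and striatum and dentate markers, and their part was not tested. For the loss of NEIL1, P/Q-type Cacna1a (-0.17), L-type Cacna1d (-0.18) and T-type Cacna1h (-0.20) had log2 differences with an unadjusted p under 0.05, and adjusted values from 0.291 to 0.327. T-type Cacna1g had -0.37 in Neil1-/-Neil2-/- and -0.25 for the loss of NEIL2. The remaining Cacna1b, Cacna1c and Cacna1i had log2 differences against WT of -0.12 to 0.14.

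Of the alpha2delta subunits, which raise the number of channels at the surface, the leading Cacna2d1 measured 336, 293 and 286 CPM in WT, 263 and 306 CPM in Neil1-/-, 322, 354 and 322 CPM in Neil2-/- and 291 and 319.9 CPM in Neil1-/-Neil2-/-. Every mutant overlapped WT, and its log2 differences were -0.10, 0.13 and 0.00 in Neil1-/-, Neil2-/- and Neil1-/-Neil2-/-. The rarer Cacna2d2, best known from the cerebellum, measured 8.96, 12.7 and 9.77 CPM in WT, 10.6 and 9.94 CPM in Neil1-/-, 12.6, 10.7 and 11.9 CPM in Neil2-/- and 21.3 and 11.3 CPM in Neil1-/-Neil2-/-. One library was high: Neil1-/-Neil2-/- library 1, the one rich in oligodendrocyte, astrocyte, blood, choroid plexus and ependyma, and thalamus and striatum markers. The log2 difference in Neil1-/-Neil2-/- was 0.64 ± 0.22 (SE) (adjusted p = 0.308). It was 0.11 without library 1 and 1.02 without library 2, where edgeR gave an adjusted p of 0.0164 with 1 library left in the group, taken to vary like the other groups. The part of the markers in this value was not tested. Cacna2d3 had log2 differences of -0.14, 0.02 and 0.00.

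Among the beta subunits Cacnb1 measured 269.7, 305 and 262 CPM in WT, 295 and 272 CPM in Neil1-/-, 315, 306 and 317 CPM in Neil2-/- and 275 and 295 CPM in Neil1-/-Neil2-/-. All 3 Neil2-/- libraries were above all WT libraries, by a small margin, and the log2 difference there was 0.16 ± 0.069 (SE) (adjusted p = 0.477). Cacnb4 had -0.18 in Neil1-/- and 0.25 in the interaction, both at an unadjusted p under 0.05. Cacnb2 and Cacnb3 had log2 differences of -0.16 and 0.13 in Neil1-/-, -0.02 and -0.09 in Neil2-/-, and -0.07 and -0.11 in Neil1-/-Neil2-/-. The Cacnb1 gene overlaps the ribosomal gene Rpl19, so that reads of the pair may be split between them. Another 5 members overlap a gene of the table (Cacna1c, Cacna1d, Cacna2d3, Cacna2d4 and Atp2a1), and the use of strand in counting is not stated.

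Among the release channels the smallest p belonged to Ryr3, often called the brain type of ryanodine receptor. Ryr3 measured 92.7, 106 and 106 CPM in WT, 94.9 and 83.7 CPM in Neil1-/-, 98.7, 92.9 and 88.9 CPM in Neil2-/- and 74.5 and 85.0 CPM in Neil1-/-Neil2-/-. Both Neil1-/-Neil2-/- libraries were below all 3 WT libraries, while Neil1-/- and Neil2-/- each overlapped WT, with 1 library below it. The log2 difference was -0.35 ± 0.093 (SE) in Neil1-/-Neil2-/- (unadjusted p = 0.00276, adjusted p = 0.176 in edgeR), -0.19 in Neil1-/- and -0.12 in Neil2-/-. In the additive model it was -0.21 ± 0.063 (SE) for the loss of NEIL1 (adjusted p = 0.207) and -0.14 for the loss of NEIL2. The interaction was -0.04 (95% interval -0.33 to 0.24). Without Neil1-/-Neil2-/- library 1 the difference in Neil1-/-Neil2-/- was -0.26, and without both that library and Neil1-/- library 2 the loss of NEIL1 gave -0.12.

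Ryr2, the leading ryanodine receptor, measured 166, 179.9 and 177 CPM in WT, 170.5 and 148 CPM in Neil1-/-, 188, 174 and 164 CPM in Neil2-/- and 157 and 172 CPM in Neil1-/-Neil2-/-. Its log2 differences were -0.13, 0.01 and -0.09 in the 3 mutants. Itpr1 measured 416, 364 and 363 CPM in WT, 338 and 379 CPM in Neil1-/-, 442, 382 and 329.6 CPM in Neil2-/- and 366 and 380 CPM in Neil1-/-Neil2-/-. All groups overlapped for Itpr1, and its log2 differences were -0.09, 0.01 and -0.03 (95% interval -0.27 to 0.21). The low Ryr1 and Itpr2 had differences of -0.24 and -0.31 in Neil1-/-, -0.11 and -0.06 in Neil2-/-, and -0.24 and 0.09 in Neil1-/-Neil2-/-. Itpr3 lay at 0.238 to 1.23 CPM in all 10 libraries, too low to resolve its differences.

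Of the reticulum pumps, which refill the store, Atp2a2 measured 722, 774 and 711 CPM in WT, 734 and 660.3 CPM in Neil1-/-, 783, 704 and 719 CPM in Neil2-/- and 689.9 and 732 CPM in Neil1-/-Neil2-/-. Its log2 differences of -0.08 (95% interval -0.24 to 0.09), 0.00 (95% interval -0.15 to 0.15) and -0.05 (95% interval -0.21 to 0.11) against WT lay close to 0. Atp2a3, at 0.440 to 2.60 CPM, had -1.07 in Neil2-/- (adjusted p = 0.377) and 1.49 in the interaction. Atp2a1, a pump of fast muscle, was at 0 to 0.762 CPM.

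The plasma membrane pump Atp2b1, the highest member, measured 2700, 2823 and 2701 CPM in WT, 2584 and 2089 CPM in Neil1-/-, 2959, 2872 and 2791 CPM in Neil2-/- and 2472 and 2657 CPM in Neil1-/-Neil2-/-. Every library labelled as lacking NEIL1 was below every other library (2089 to 2657 CPM against 2700 to 2959 CPM), although the highest of the former and the lowest of the latter lay close together. The log2 difference for the loss of NEIL1 was -0.20 ± 0.058 (SE) (unadjusted p = 0.00502, adjusted p = 0.202), and -0.13 without Neil1-/- library 2, which had the lowest value. It was -0.23 in Neil1-/- and -0.10 in Neil1-/-Neil2-/- against WT. The former was -0.08 without Neil1-/- library 2 and -0.39 without library 1. Atp2b3, a pump of neurons, had -0.16 for the loss of NEIL1. Atp2b2, also neuronal, had 0.18 for the loss of NEIL2, with adjusted values of 0.274 and 0.206. Atp2b4 measured 12.4, 10.2 and 6.50 CPM in WT, 8.81 and 14.8 CPM in Neil1-/-, 9.18, 11.4 and 3.91 CPM in Neil2-/- and 24.9 and 6.40 CPM in Neil1-/-Neil2-/-. Within Neil1-/-Neil2-/- the value of library 1 exceeded that of library 2 by more than the whole range of the other groups.

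The sodium/calcium exchangers held the member closest to a call. Slc8a1, best known as the exchanger of heart muscle and also present in neurons, measured 405, 434 and 402 CPM in WT, 349.9 and 334 CPM in Neil1-/-, 509, 439.7 and 405 CPM in Neil2-/- and 390.1 and 364 CPM in Neil1-/-Neil2-/-. The 4 libraries labelled as lacking NEIL1 lay at 334 to 390 CPM, all below the 6 others at 402 to 509 CPM. For the loss of NEIL1 the log2 difference was -0.27 ± 0.061 (SE) (unadjusted p = 0.000798, adjusted p = 0.109 in edgeR). The adjusted p was 0.0491 without the filter on low counts and 0.00696 in DESeq2, and leaving out 1 library at a time gave log2 differences of -0.30 to -0.23 and adjusted values of 0.0524 to 0.225. Over all alternatives the adjusted p ran from 0.00696 to 0.470, the highest being without Neil1-/- library 2 and Neil1-/-Neil2-/- library 1. Against WT it was -0.28 in Neil1-/- and -0.13 in Neil1-/-Neil2-/-, and the interaction was 0.02 (95% interval -0.26 to 0.29). Slc8a1 and Atp2b1 were the 2 members of 36 whose libraries separated completely by the NEIL1 label, both lower, where 2.35% of all genes separated (1.05% higher, 1.29% lower). Of the 36, 0 separated by the NEIL2 label, where 3.68% of all genes did.

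Slc8a2, the leading exchanger and a gene of brain, measured 468, 588 and 501 CPM in WT, 538 and 468 CPM in Neil1-/-, 663, 551 and 617 CPM in Neil2-/- and 528 and 597 CPM in Neil1-/-Neil2-/-. Neil2-/- libraries lay in the upper part of the WT range or above it, with a log2 difference of 0.23 ± 0.098 (SE) (adjusted p = 0.476). Slc8a3 measured 10.7, 15.0 and 20.01 CPM in WT, 13.2 and 9.24 CPM in Neil1-/-, 19.3, 13.3 and 22.3 CPM in Neil2-/- and 23.1 and 20.7 CPM in Neil1-/-Neil2-/-. Both Neil1-/-Neil2-/- libraries were above WT, by a small margin over the highest WT library, and the WT libraries themselves spread widely. For the loss of NEIL2 the log2 differences of Slc8a2, Slc8a3 and Slc8a1 were 0.20, 0.54 and 0.13, with adjusted values of 0.197, 0.199 and 0.298. All 3 exchangers thus had a positive value that missed the threshold.

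**Figure D4:**
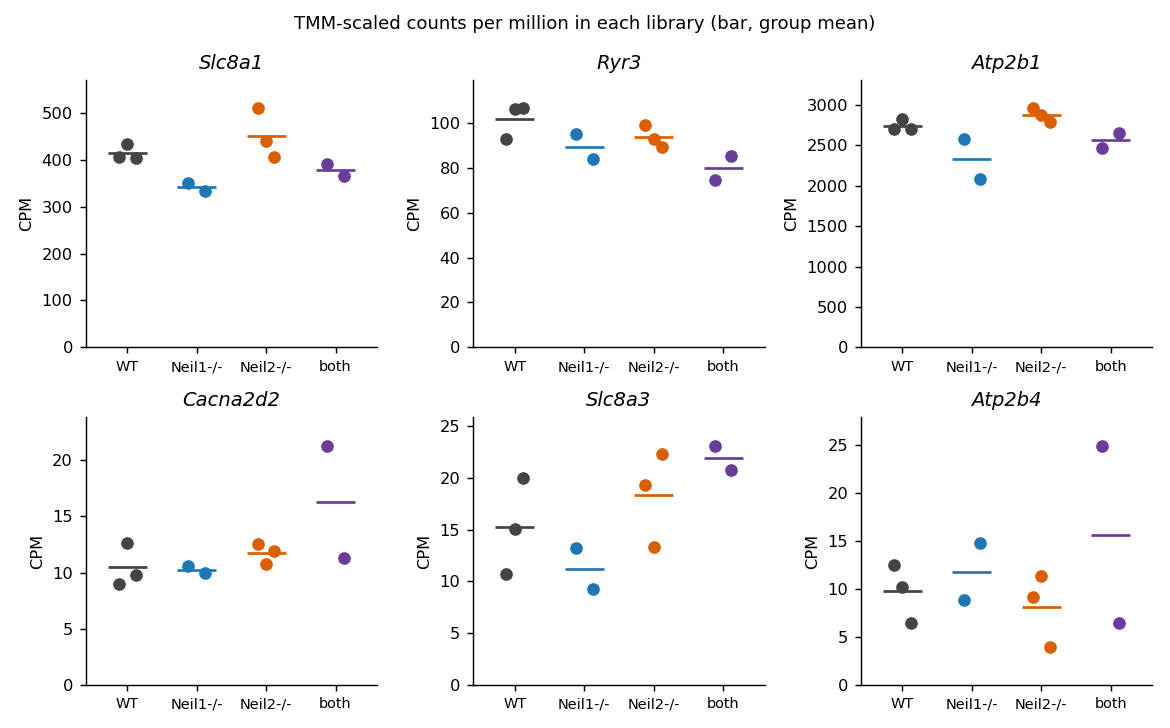
TMM-scaled CPM of Slc8a1, Ryr3, Atp2b1, Cacna2d2, Slc8a3 and Atp2b4 in each of the 10 libraries (points, with a bar at the group mean; both, Neil1-/-Neil2-/-; axes start at 0). The 4 libraries labelled as lacking NEIL1 are the lowest for Slc8a1 and Atp2b1, and 1 Neil1-/-Neil2-/- library is far above the rest for Cacna2d2 and Atp2b4.

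Store-operated entry couples the STIM sensors of the reticulum to ORAI pores. Stim2 measured 278, 288 and 259 CPM in WT, 277 and 264 CPM in Neil1-/-, 264, 266 and 272 CPM in Neil2-/- and 235 and 257 CPM in Neil1-/-Neil2-/-. Both Neil1-/-Neil2-/- libraries were below the WT range and the single mutants were within it, with a log2 difference of -0.16 ± 0.071 (SE) in Neil1-/-Neil2-/- (adjusted p = 0.433). Stim1 had 0.00, 0.07 and 0.10 in the 3 mutants. Orai2 measured 126, 139 and 143 CPM in WT, 159 and 113 CPM in Neil1-/-, 165, 135 and 182 CPM in Neil2-/- and 155 and 174 CPM in Neil1-/-Neil2-/-. It had 0.25 for the loss of NEIL2 (adjusted p = 0.214), and the low Orai1 had 0.39 in Neil1-/- and 0.29 for the loss of NEIL1, each at an unadjusted p under 0.05. Orai3 had 0.04, -0.01 and -0.10.

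Position offers a check on the neighbourhood of the targeted genes. None of the 37 members lies within 20 Mb of Neil1 or Neil2. Cacna2d2 is on chromosome 9 with Neil1, 50.3 Mb away, and Cacna1d and Cacna2d3 are on chromosome 14 with Neil2, 32.7 and 33.5 Mb away. Slc8a1 is at chr17:81373105-81738387, Ryr3 at chr2:112631354-113217405 and Atp2b1 at chr10:98914630-99026143 (GRCm38, RefSeq annotation).

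Of 21 listed store partners, proteins that work beside the members in the reticulum, 19 were tested, and 3 fell and 0 rose for the loss of NEIL2 (0.765% and 0.73% of all genes), with 10 values above 0 and 9 below. The median of the list was 0.03, beside 0.00 for all genes. This list and the other partner lists were chosen with earlier results of these data known. Their counts beside the share of all genes are therefore no independent test of a list. Hspa5 (BiP), the main chaperone of the reticulum and a store of bound calcium, measured 316, 253 and 236 CPM in WT, 291 and 288 CPM in Neil1-/-, 186, 194 and 188 CPM in Neil2-/- and 191 and 210.5 CPM in Neil1-/-Neil2-/-. Calr (calreticulin), which buffers calcium in the lumen, measured 543, 548 and 494 CPM in WT, 521 and 551 CPM in Neil1-/-, 451, 409.9 and 443 CPM in Neil2-/- and 400 and 438 CPM in Neil1-/-Neil2-/-. Pdia3, a disulfide isomerase that works with calreticulin, measured 283, 264 and 269.7 CPM in WT, 277 and 259 CPM in Neil1-/-, 217, 209.5 and 221 CPM in Neil2-/- and 213 and 224 CPM in Neil1-/-Neil2-/-. For all 3 genes the 5 libraries labelled as lacking NEIL2 lay below the 5 others with no overlap, as for 1.84% of all genes (1.85% lay above). The log2 differences were -0.51 ± 0.070 (SE) for Hspa5 (adjusted p = 0.00309 in edgeR), -0.32 ± 0.044 (SE) for Pdia3 (adjusted p = 0.00331) and -0.31 ± 0.050 (SE) for Calr (adjusted p = 0.01). The 14 thalamus and striatum markers summed to 433 to 435 CPM in Neil2-/- and 476 and 554 CPM in Neil1-/-Neil2-/-, above the 344 to 418 CPM of WT. The single genes of that list did not all rise in Neil2-/-: 6 lay above 0 and 8 below, with a median log2 difference of -0.08 and 1 called higher, whereas in Neil1-/-Neil2-/- 13 of 14 lay above 0 and 4 were called higher. The 11 oligodendrocyte markers summed to 519 to 588 CPM in Neil2-/- (548 to 635 CPM in WT). Their part in these values was not tested.

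Hspa5 had a log2 difference of -0.50 in Neil2-/- and -0.42 in Neil1-/-Neil2-/- against WT, Calr -0.28 and -0.33, and Pdia3 -0.34 and -0.32. Both comparisons use the same 3 WT libraries. Only Pdia3 in Neil2-/- passed an adjusted p of 0.05 among these 6 values (0.0417), and that call was lost when any 1 of the WT, Neil2-/- or Neil1-/-Neil2-/- libraries was left out (adjusted p 0.0659 to 0.218) and in a fit of Neil2-/- and WT alone (0.0564). For the loss of NEIL2, Hspa5 and Pdia3 kept the call in all 15 alternatives, and Calr in all but the 1 without Neil1-/- library 2 and Neil1-/-Neil2-/- library 1 (adjusted p = 0.0512). In the same comparison the leading pump and channels of the reticulum had log2 differences of 0.01 (95% interval -0.10 to 0.12) for Atp2a2, 0.03 (95% interval -0.13 to 0.19) for Itpr1 and 0.02 (95% interval -0.10 to 0.15) for Ryr2, and Ryr3 had -0.14.

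Hspa5 and Calr hold in their promoters a motif of reticulum chaperones. The stress element of the reticulum (ERSE), to which ATF6 binds together with NF-Y, was searched on both strands as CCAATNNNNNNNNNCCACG in the 250 bases before each annotated start (RefSeq, GRCm38.p6). It was found in 37 of 32851 windows (0.113%), in 0 of the 40 windows of the 29 members that matched, and in those of 3 of 17 store partners that matched, Hspa5, Calr and Canx. Their windows are printed because 2 of the 3 genes fell, with the element in capitals, 5′ to 3′ on the strand of the gene.
Hspa5, chr2:34771840-34772089, plus strand: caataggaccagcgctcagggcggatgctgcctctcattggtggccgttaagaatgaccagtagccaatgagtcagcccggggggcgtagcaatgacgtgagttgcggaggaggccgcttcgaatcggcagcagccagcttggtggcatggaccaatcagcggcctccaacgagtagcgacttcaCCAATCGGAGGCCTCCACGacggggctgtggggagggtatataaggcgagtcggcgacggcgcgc
Calr, chr8:84846932-84847181, minus strand: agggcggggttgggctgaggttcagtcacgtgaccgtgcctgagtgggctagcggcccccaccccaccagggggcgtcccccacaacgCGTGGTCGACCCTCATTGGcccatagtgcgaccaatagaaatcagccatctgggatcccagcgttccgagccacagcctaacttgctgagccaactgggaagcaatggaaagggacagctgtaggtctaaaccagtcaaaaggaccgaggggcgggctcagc
Canx, chr11:50325674-50325923, minus strand: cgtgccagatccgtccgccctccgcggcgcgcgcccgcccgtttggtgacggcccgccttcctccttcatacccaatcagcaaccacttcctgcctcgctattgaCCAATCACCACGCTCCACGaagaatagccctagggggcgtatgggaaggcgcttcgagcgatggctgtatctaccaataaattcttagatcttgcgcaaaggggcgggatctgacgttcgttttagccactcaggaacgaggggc
In Calr the element reads in the opposite direction. It ends 47 bases before the start in Hspa5, 144 in Calr and 127 in Canx. Canx (calnexin), a membrane-bound chaperone, had a log2 difference of -0.07 (95% interval -0.19 to 0.04) for the loss of NEIL2 with the element present, and Pdia3 fell without an exact match, so that match and change did not go together in each gene. The 5-base core TGACG of the cyclic AMP response element, to which the calcium-regulated factor CREB binds, was in 22.5% of the 40 member windows and in 17.8% of all windows.

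Of 22 listed channel partners 16 were tested, and 1 rose for the loss of NEIL2 (0.73% of all genes). This was Cacng8, which by its name is a channel gamma subunit and is known for its work on AMPA receptors of the hippocampus, at 0.41 ± 0.088 (SE) (adjusted p = 0.0355). It measured 115, 151 and 139 CPM in WT, 134 and 112 CPM in Neil1-/-, 196, 155 and 175 CPM in Neil2-/- and 158 and 183 CPM in Neil1-/-Neil2-/-. One Neil1-/- library and WT library 1 were the lowest, and the call was lost without WT library 1 or 3, Neil1-/- library 2, Neil2-/- library 1 or 3, or either Neil1-/-Neil2-/- library (adjusted p 0.0549 to 0.120). Of 12 mitochondrial uptake genes 1 rose for the loss of NEIL2 (again beside 0.73%), Mcur1, a regulator of the uniporter, at 0.37 ± 0.062 (SE) (adjusted p = 0.0103). Mcur1 measured 22.1, 24.0 and 24.6 CPM in WT, 22.1 and 21.2 CPM in Neil1-/-, 32.1, 30.1 and 32.1 CPM in Neil2-/- and 25.4 and 28.4 CPM in Neil1-/-Neil2-/-. All 5 libraries labelled as lacking NEIL2 were above the 5 others (1.85% of all genes), and the call held in all 15 alternatives.

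Of 12 calcium-binding proteins 1 fell (beside 0.765% of all genes), Calb1 (calbindin), a buffer of the cytosol, at -0.67 ± 0.15 (SE) (adjusted p = 0.0478). Calb1 measured 202, 144 and 151 CPM in WT, 171 and 286 CPM in Neil1-/-, 120.3, 128 and 123 CPM in Neil2-/- and 103 and 119 CPM in Neil1-/-Neil2-/-. The 5 libraries labelled as lacking NEIL2 were the lowest, and Neil1-/- library 2 stood above the rest. The call was lost without WT library 1, any 1 Neil2-/- library or either Neil1-/-Neil2-/- library (adjusted p 0.0653 to 0.163). Granule cells of the dentate gyrus also express Calb1, and the 6 dentate markers summed to 12.6 to 16.3 CPM in Neil2-/-, 16.8 and 35.8 CPM in Neil1-/-Neil2-/- and 18.5 to 28.3 CPM in WT. The part of these markers in the value of Calb1 was not tested. Of 7 listed other transporters 6 were tested and 0 called in edgeR, with 3 lower at an unadjusted p under 0.05 for the loss of NEIL1 (6.77% of all genes), 2 lower in Neil1-/- (4.89%), 1 lower in Neil1-/-Neil2-/- (4.73%), 1 higher for the loss of NEIL2 (8.52%) and 0 in Neil2-/- and the interaction. The 2 with the smallest p against WT were the Golgi pump Atp2c1 (-0.24 in Neil1-/-Neil2-/-, -0.19 in Neil1-/-) and the potassium-dependent exchanger Slc24a2 (-0.27 in Neil1-/-), at adjusted values of 0.231, 0.495 and 0.543. Without Neil1-/- library 2 the values in Neil1-/- were -0.09 for Atp2c1 and -0.04 for Slc24a2, and without library 1 they were -0.29 and -0.51. For Neil1-/- and Neil1-/-Neil2-/- against WT and for the interaction and the loss of NEIL1, no gene of these 5 lists was called.

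**Figure D5:**
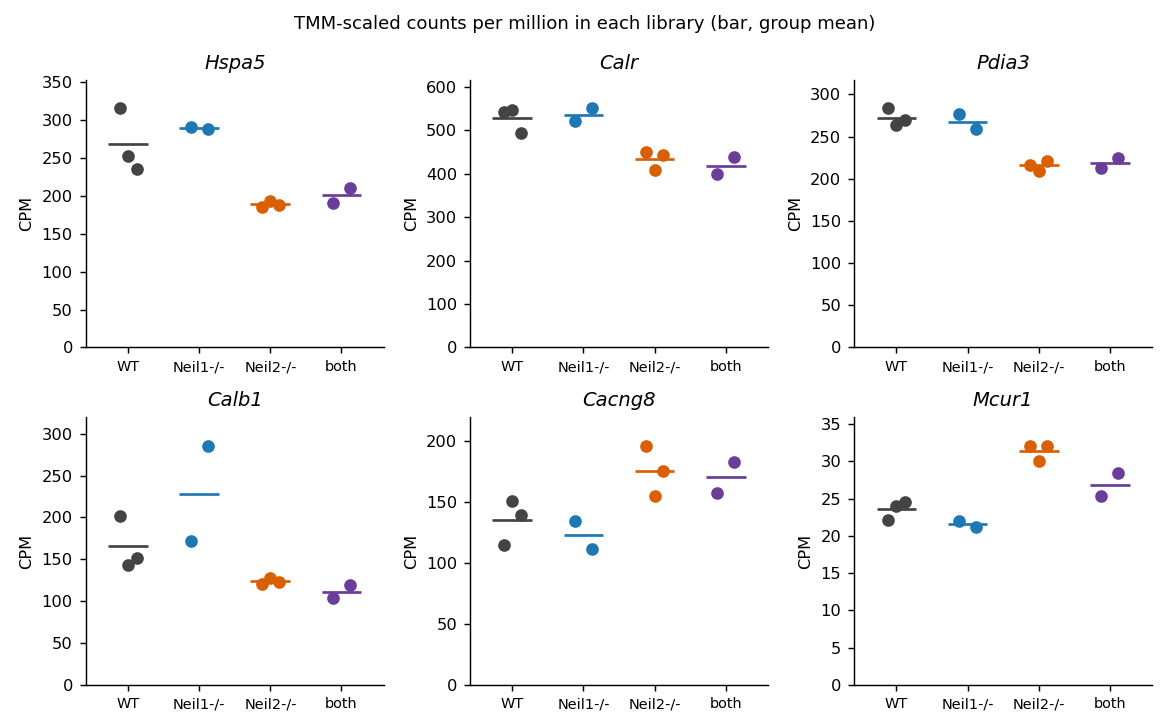
TMM-scaled CPM of the partner genes called for the loss of NEIL2 in each of the 10 libraries (points, with a bar at the group mean; both, Neil1-/-Neil2-/-; axes start at 0). Hspa5, Calr, Pdia3 and Calb1 are lower, and Cacng8 and Mcur1 higher, in the 5 libraries labelled as lacking NEIL2.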

How the data were processed

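Poly-A libraries were read as 100-bp pairs. The deposited values are expected counts per gene, not normalized, made by the authors with RSEM after Bowtie2 alignment on mm10 (versions not given in the sources used here; HISAT, StringTie and GATK are also listed in the submitters' processing notes). The study used DESeq2 and left out 2 libraries as outliers. The group sizes it then had are those used here, but which libraries were left out is not stated by name in the sources used here. Here counts were rounded and tested with edgeR 4.0.16 (filterByExpr with a minimum count of 10, TMM scaling, quasi-likelihood test) over 10 libraries, with 4 genotype means for the comparisons with WT and the interaction and an additive model for each loss. All p-values are two-sided and Benjamini-Hochberg adjusted over 13982 genes, and they measure the spread between single mice. Intervals come from the same fit and SE from the log2 difference and its F statistic. CPM are TMM-scaled. TPM used unrounded counts and GENCODE M21 transcript lengths.

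Alternatives were no filter, median-ratio scaling, DESeq2 1.42.0, an adjusted p of 0.1, a fit of just the pair of groups, the replicate number as a block, leaving out each library or both outlying ones, and mean transcript length. Those for partner genes, and for members at an unadjusted p of 0.01 to 0.05, were added after seeing the data. No 2 libraries were identical. The named genes are members with an unadjusted p under 0.01 (all values) or 0.05, the leading gene of each family, and partner genes that were called or else the 2 of a list with the smallest p against WT. Canx and Atp2b4 were shown after their values were seen. Members and lists were chosen with earlier results of these data known.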

Additional observations from a re-analysis of the deposited data

How the results depend on the processing

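The count of members called was 0 under every alternative in Neil1-/- against WT, Neil2-/- against WT, the interaction and the loss of NEIL2. It was 1 in Neil1-/-Neil2-/- against WT without Neil1-/-Neil2-/- library 2 (Cacna2d2; 0 to 1 over the single libraries left out), and 1 for the loss of NEIL1 without the filter on low counts and in DESeq2 (Slc8a1 in both); the cause was not tested. The threshold of 0.1 called 0 members in all 6 comparisons. None of the refitted fold changes (members at an unadjusted p under 0.05 and named partner genes) changed direction. The other genes given by value were not refitted. Median-ratio scaling moved the median of all genes by at most 0.0033 log2 units. Over all genes the calls differed between tools: DESeq2 called 86, 158 and 186 genes in Neil1-/-, Neil2-/- and Neil1-/-Neil2-/- against WT, where edgeR called 28, 42 and 45, and 30, 241 and 630 for the interaction and the losses of NEIL1 and NEIL2, where edgeR called 13, 47 and 209. With the replicate block 0 members were called in each comparison. Of 13 pairs of libraries with 1 number, 1 had a correlation of deviations over 0.1 (range -0.17 to 0.19). In groups of 2 the deviations mirror each other: WT library 1 had -0.134 with Neil1-/- library 1 and 0.134 with library 2. The correlations therefore cannot decide whether the numbers pair the mice. The block ended the partner calls of Pdia3 in Neil2-/- and of Calb1 and Cacng8 for the loss of NEIL2 (edgeR adjusted p 0.0976, 0.0869 and 0.0791). Without both outlying libraries the same 3 calls were lost (0.0596, 0.0589 and 0.0784), and that of Calr for the loss of NEIL2 (0.0512). With mean transcript length 26 members stayed at 10 TPM or more and all 10 families kept their leading gene, while shares within families moved. Groups of 2 or 3 mice and counts under about 5 CPM limit what could be seen for Itpr3, Atp2a1, Atp2a3 and Cacna2d4.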

Other observations

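The 2 libraries whose title and genotype label contradict each other were compared with the range of the 10 grouped libraries, as CPM on their own totals. In one, 34 of 37 members lay inside that range, with Cacna2d3 at 140.0, Ryr2 at 188 and Atp2a2 at 797 CPM above it (highest grouped values 136, 184 and 775 CPM). In the other, 31 members lay inside. Above the range there were Cacna1d at 38.4, Ryr2 at 199, Ryr3 at 130, Itpr1 at 437 and Stim2 at 298 CPM, where the highest grouped values were 37.05, 184, 107, 432 and 289 CPM, and Orai3 lay below it at 52.1 CPM (lowest grouped value 53.3 CPM). Ryr3 was thus higher in that library than in any library of a known group.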
